A study of Mus musculus with 7 samples.

Results

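The genes described here are 8 genes of forebrain projection neurons, the long-axon cells of cortex, hippocampus and striatum: Tbr1, Neurod6, Ddn, Nrgn, Camk2a, Ppp1r1b, Drd1 and Adora2a. They were picked by name, with their levels in each tumour already known, out of 37620 gene identifiers in the count tables, and all 8 were found there. Levels of these genes are therefore given as a description and support nothing by themselves. The samples are total RNA of 7 tumours. Neural stem cells from the subventricular zone, a germinal layer of the adult forebrain, carried tumour-driving changes, were kept in culture for 10 to 15 passages and were then placed in the brains of nude mice, which lack a thymus. The 3 GSC2 tumours came from cells carrying a short hairpin against p53 (shp53), Nf1-/- and CDK4. The 4 GSC1 tumours came from cells carrying lgT/Ras. Neither the promoters that drive these changes nor how many clones make up a line are given in the labels, and each combination of changes is present in 1 line only. No normal brain or cultured cells are among the samples used here, so every comparison is between tumours.

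In the normal forebrain these genes are known as markers of neurons. Tbr1 and Neurod6 encode transcription factors of glutamatergic neurons: Tbr1 specifies deep-layer cortical neurons, and Neurod6, also called Nex, is a basic helix-loop-helix factor of cortical and hippocampal pyramidal cells. Ddn encodes dendrin, a protein of forebrain dendrites, Nrgn encodes neurogranin, which binds calmodulin in dendritic spines, and Camk2a encodes the alpha subunit of the calcium and calmodulin-dependent kinase of excitatory synapses. Ppp1r1b encodes DARPP-32, a phosphatase inhibitor that relays dopamine signals in striatal projection neurons. Drd1, the dopamine D1 receptor gene, and Adora2a, the adenosine receptor gene of the striatum, mark the direct and the indirect striatal output pathway in turn. A tumour sample holds whatever host tissue was taken with it. In such bulk RNA, fewer cells of a type and less RNA per cell cannot be told apart.

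Promoter windows of the 250 bases before the transcription start were at hand for 4 of the 8 genes, from RefSeq on GRCm38.p6. They are shown because Neurod6 belongs to the factors that bind E-boxes (CANNTG), and the members' promoters are where such letters would lie. The capitals mark E-boxes.

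Tbr1, chr2:61804203-61804452, plus strand: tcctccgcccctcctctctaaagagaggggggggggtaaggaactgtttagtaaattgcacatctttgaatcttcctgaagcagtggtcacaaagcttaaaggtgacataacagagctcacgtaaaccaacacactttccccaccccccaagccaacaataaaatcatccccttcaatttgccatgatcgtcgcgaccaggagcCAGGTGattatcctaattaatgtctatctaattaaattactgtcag
Neurod6, chr6:55681264-55681513, minus strand: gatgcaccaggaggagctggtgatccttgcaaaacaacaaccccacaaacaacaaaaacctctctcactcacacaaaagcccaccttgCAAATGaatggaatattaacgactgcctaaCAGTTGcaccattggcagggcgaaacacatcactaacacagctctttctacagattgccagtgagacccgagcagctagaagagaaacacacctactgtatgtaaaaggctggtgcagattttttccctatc
Nrgn, chr9:37552746-37552995, minus strand: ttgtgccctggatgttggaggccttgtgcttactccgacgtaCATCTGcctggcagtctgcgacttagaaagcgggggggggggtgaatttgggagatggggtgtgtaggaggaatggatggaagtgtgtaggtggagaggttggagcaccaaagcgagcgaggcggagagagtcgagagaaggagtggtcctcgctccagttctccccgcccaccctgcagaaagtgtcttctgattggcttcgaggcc
Drd1, chr13:54054781-54055030, minus strand: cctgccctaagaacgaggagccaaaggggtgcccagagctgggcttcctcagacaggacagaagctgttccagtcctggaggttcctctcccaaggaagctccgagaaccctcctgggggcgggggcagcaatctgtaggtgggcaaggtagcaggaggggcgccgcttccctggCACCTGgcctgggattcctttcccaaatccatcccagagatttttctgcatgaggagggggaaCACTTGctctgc

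The Tbr1 window held 1 E-box, the Neurod6 window 2, the Nrgn window 1 and this Drd1 window 2, while a second Drd1 start, not shown, had 0. Of 32851 RefSeq windows of the same length 66.2% held an E-box on either strand, so these letters are common. The form CAGATG, which overlaps the general E-box and which NeuroD-type factors prefer, was in 14.4% of all windows and, among the members, was found in the Nrgn window alone, on the opposite strand. The T-box half-site GGTGTGA (3.33% of windows) and the cAMP response half-site TGACG (17.8%), searched on both strands, were in none of the members' windows. A match describes these letters only and is no evidence of binding.

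The libraries held 18643155 to 27020814 reads on genes in GSC2 tumours and 21635117 to 32643408 in GSC1 tumours. Levels are in CPM, read counts scaled to a common library size with TMM factors, and intervals are exact Poisson 95% intervals that cover counting error only. The labels call the cells stem-cell-derived tumour cells: 8 mitosis genes summed to 608 to 1272 CPM in GSC2 tumours and to 215 to 1532 CPM in GSC1 tumours. Beside them, 10 general neuron genes summed to 1045 to 2870 CPM in GSC2 tumours and to 685 to 5810 CPM in GSC1 tumours. GSC2-3, GSC1-3 and GSC1-4 stood apart, with genes of long transcripts (at least 8000 bases) low against genes of short ones (at most 2000 bases): the median log2 deviation differed by -0.69, -0.40 and -0.36, against 0.02 to 0.64 in the other 4 tumours. GSC1-3 and GSC1-4 also carried genes of the hindbrain, spinal cord or cerebellum, as described beside the results. The part of either in the members' levels was not tested.

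Tbr1 (ENSMUSG00000035033, chromosome 2) was the member with the widest fold range among GSC1 tumours together with Ddn and Drd1, at 151-fold for each. It was at 4.48, 8.63 and 16.9 CPM in GSC2 tumours 1 to 3, and at 18.0, 4.26, 0.119 and 0.667 CPM in GSC1 tumours 1 to 4. The lowest value rests on 3 reads (interval 0.0246 to 0.349 CPM) and the next on 14 reads (0.364 to 1.12 CPM). The highest tumour, GSC1-1, and the second, GSC2-3, had overlapping counting intervals, as did GSC2-1 and GSC1-2. The groups overlapped, since GSC1-1 lay above all GSC2 tumours and the other GSC1 tumours below them.

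Neurod6 (ENSMUSG00000037984, chromosome 6), the other cortical factor, followed another order. Its level was 7.43, 6.14 and 44.4 CPM in GSC2 tumours and 3.25, 1.65, 2.66 and 3.52 CPM in GSC1 tumours. GSC2-3 had 885 reads and stood well above the rest, whereas the GSC1 tumours lay close together and below all GSC2 tumours. GSC1-3 and GSC1-4, with 67 and 74 reads, were not set apart from the other GSC1 tumours: from GSC1-4 down to GSC1-2 each neighbour in the order had an overlapping counting interval. Within a tumour, Neurod6 reads per Tbr1 read were 1.66, 0.711 and 2.63 in GSC2 tumours, against 0.180, 0.388, 22.3 and 5.29 in GSC1 tumours. The ratio of GSC1-3 is loosely set (interval 7.32 to 111), because only 3 Tbr1 reads enter it.

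Dendrin's gene Ddn (ENSMUSG00000059213, chromosome 15) was the member most even among GSC2 tumours. It was at 137.7, 129.4 and 152.5 CPM in GSC2 tumours 1 to 3 (139.9 ± 11.7, SD, n = 3) and at 115.2, 47.9, 2.66 and 0.762 CPM in GSC1 tumours 1 to 4 (41.6 ± 53.7, SD, n = 4). The spread was 1.18-fold within GSC2 and 151-fold within GSC1. All GSC2 tumours lay above all GSC1 tumours, though GSC1-1 was close to them. GSC1-3 had 67 reads of Ddn and GSC1-4 had 16.

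Nrgn (ENSMUSG00000053310, chromosome 9) was at 103.5, 123.3 and 206 CPM in GSC2 tumours, against 155.6, 31.5, 40.2 and 7.29 CPM in GSC1 tumours. GSC1-1 lay within the range of the GSC2 tumours and the other GSC1 tumours below it. GSC1-3, in which Ddn was nearly lost, had slightly more Nrgn than GSC1-2. Nrgn reads per Ddn read were accordingly 0.752, 0.953 and 1.35 in GSC2 tumours and 1.35, 0.659, 15.1 and 9.56 in GSC1 tumours.

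Camk2a (ENSMUSG00000024617, chromosome 18), the most abundant member in CPM, had 251, 507 and 832 CPM in GSC2 tumours and 291, 109.8, 153.5 and 69.9 CPM in GSC1 tumours. GSC1-1 lay just above GSC2-1, so the groups overlapped. The lowest tumour, GSC1-4, still had 1469 reads. The range from the highest to the lowest tumour was 11.9-fold, against 200.2-fold for Ddn and 28.3-fold for Nrgn. Per kilobase of the longest transcript, mean levels of Camk2a and Nrgn were near each other, at 106.6 and 99.4 CPM per kb in GSC2 tumours and 31.4 and 40.4 CPM per kb in GSC1 tumours, while Ddn averaged 37.4 CPM per kb in GSC2 tumours and 11.1 in GSC1 tumours.

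**Figure D1:**
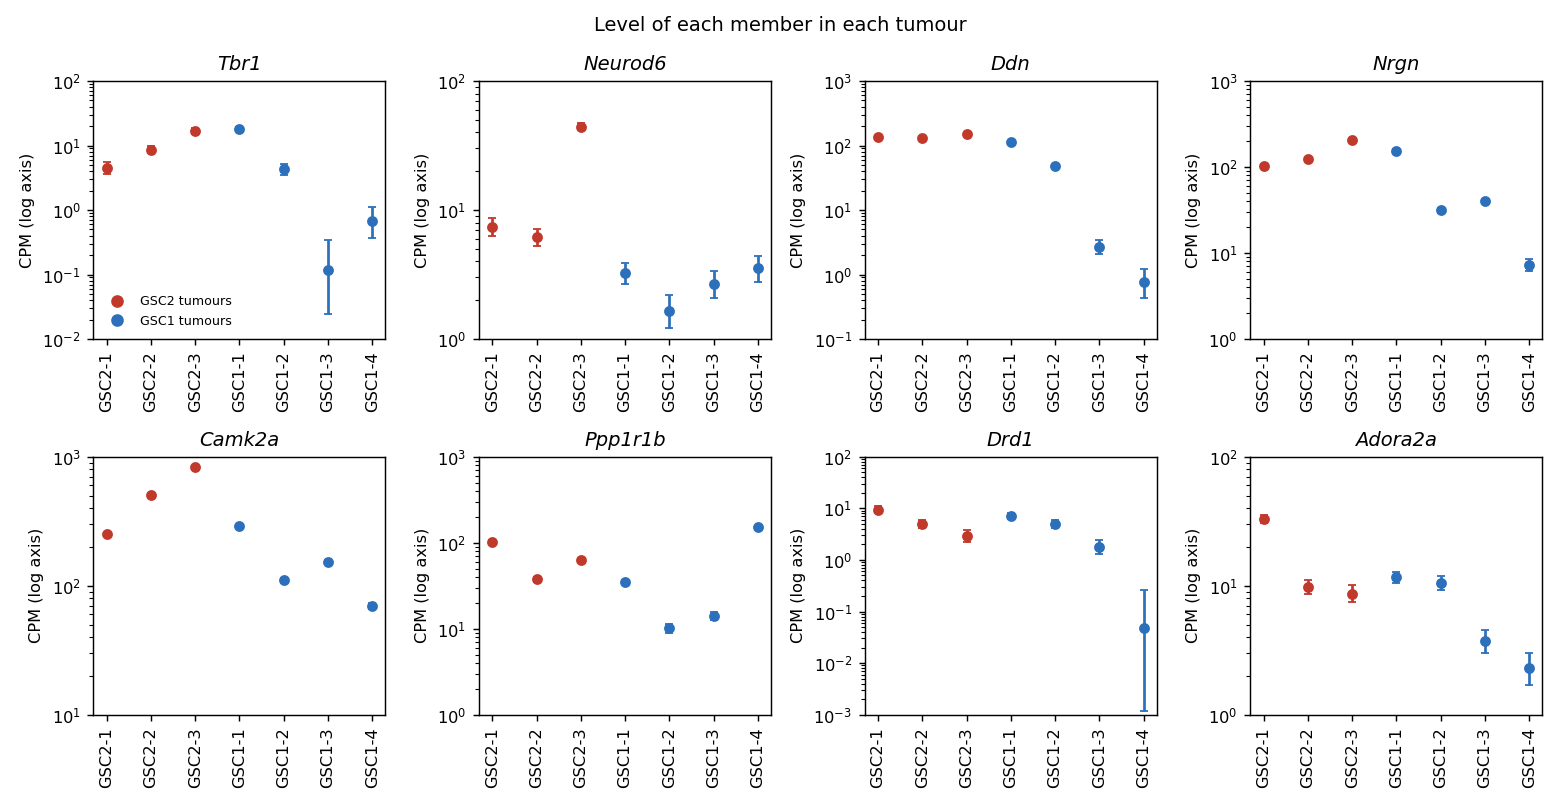
Level of each of the 8 member genes in CPM (log axis) in each tumour, GSC2 tumours in red and GSC1 tumours in blue, 1 point per tumour with its exact Poisson 95% interval. Ddn stayed between 129.4 and 152.5 CPM in GSC2 tumours and spanned 0.762 to 115.2 CPM in GSC1 tumours, while Ppp1r1b was highest in GSC1-4 at 150.7 CPM.

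By their point values the striatal receptors Drd1 and Adora2a shared an order at both ends, in part within counting error. Drd1 (ENSMUSG00000021478, chromosome 13) was at 9.41, 4.98 and 2.96 CPM in GSC2 tumours, and at 7.19, 4.96, 1.79 and 0.0476 CPM in GSC1 tumours. Adora2a (ENSMUSG00000020178, chromosome 10) was at 32.9, 9.78 and 8.67 CPM in GSC2 tumours and at 11.6, 10.5, 3.70 and 2.29 CPM in GSC1 tumours. Both were highest in GSC2-1 and lowest in GSC1-4, with GSC1-3 next to lowest, and for both the groups overlapped. For Drd1 the counting intervals of GSC2-1 and GSC1-1 overlapped, as did those of GSC2-3 and GSC1-3. For Adora2a those of GSC1-3 and GSC1-4 overlapped. In the middle of the Adora2a order, from GSC1-1 through GSC1-2 and GSC2-2 to GSC2-3, each counting interval overlapped the next. The ends of this run, GSC1-1 (10.48 to 12.78 CPM) and GSC2-3 (7.43 to 10.06 CPM), did not overlap. GSC1-1 also lay apart from GSC2-1, and GSC2-3 from GSC1-3. Drd1 reads per Adora2a read were 0.286, 0.509 and 0.341 in GSC2 tumours and 0.620, 0.472, 0.484 and 0.0208 in GSC1 tumours. The last of these rests on a single Drd1 read beside 48 Adora2a reads (interval 0.000517 to 0.122), and its interval lay below those of the other 6 tumours.

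Ppp1r1b (ENSMUSG00000061718, chromosome 11) departed from its striatal partners most in GSC1-4. Its level was 102.8, 37.4 and 62.9 CPM in GSC2 tumours, against 35.2, 10.2, 14.1 and 150.7 CPM in GSC1 tumours. GSC1-4, the tumour with the least Drd1 and Adora2a, had the most Ppp1r1b. Ppp1r1b reads per Adora2a read were 3.12, 3.83 and 7.25 in GSC2 tumours and 3.04, 0.969, 3.81 and 65.9 (interval 49.6 to 89.6) in GSC1 tumours. The intervals of GSC1-2 (0.818 to 1.15), where Ppp1r1b was lowest, and of GSC2-3 (6.18 to 8.55) also lay apart from those of all other tumours. An antisense gene that shares exon bases with Ppp1r1b in GENCODE M21, 1700003D09Rik, had 3, 1 and 0 reads in GSC2 tumours and 0 in every GSC1 tumour. In GSC1-4 Ppp1r1b thus went against the striatal receptors it is grouped with. Cerebellar neuron genes were high in the same tumour: Cbln3, of granule cells, was at 245 CPM there and at most 1.31 CPM in the other 6 tumours, and their part in the Ppp1r1b level was not tested.

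**Figure D2:**
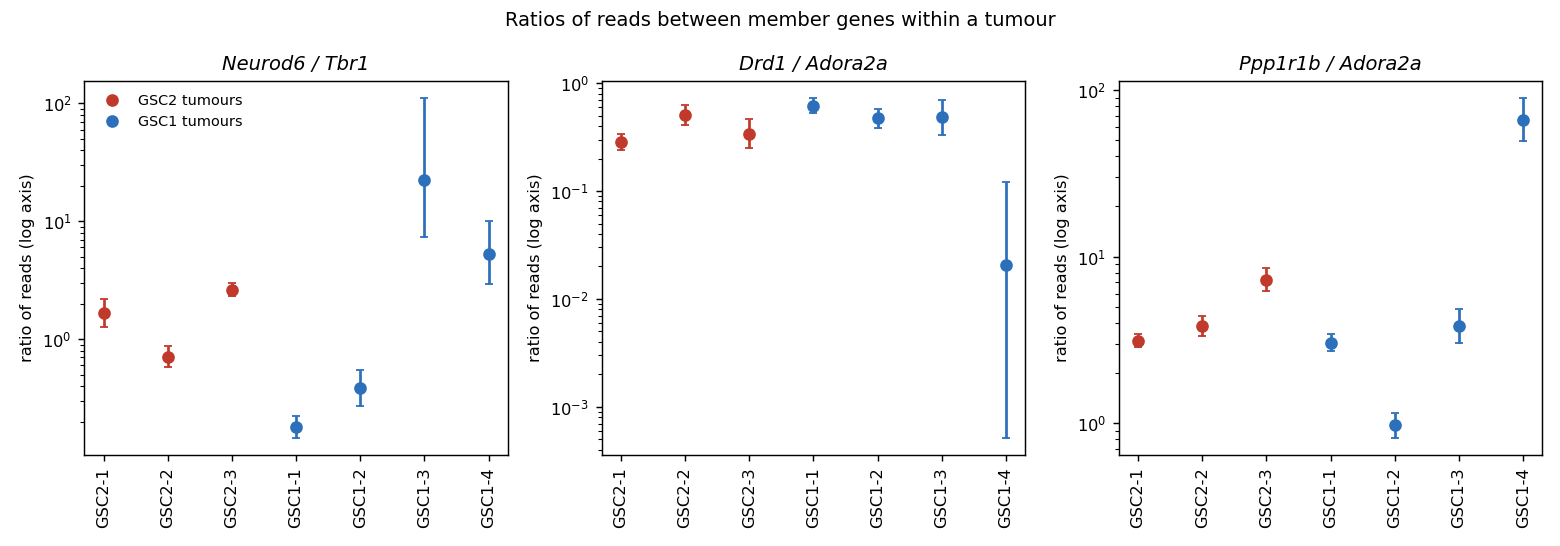
Ratio of reads between pairs of members within a tumour (log axis), GSC2 tumours in red and GSC1 tumours in blue, with exact binomial 95% intervals for counting error. Drd1 per Adora2a lay between 0.286 and 0.620 in 6 tumours and at 0.0208 in GSC1-4, where Ppp1r1b per Adora2a reached 65.9.

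The 8 genes did not move as 1 group over the tumours. In log2 CPM over the 7 tumours, which share their library depth and host tissue across all genes, Pearson's r was highest for Nrgn with Camk2a (0.918), Ddn with Nrgn (0.884), Tbr1 with Ddn (0.883) and Drd1 with Adora2a (0.869). It was 0.478 for the cortical factors Tbr1 and Neurod6. Ppp1r1b had r between -0.400 (with Drd1) and 0.486 (with Neurod6). These are descriptions over 7 tumours. Of the 8 members 4 were highest in GSC2-3 and 5 lowest in GSC1-4, and GSC1-3 and GSC1-4 were the lowest pair for 4: Tbr1, Ddn, Drd1 and Adora2a.

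A panel of 10 genes used by neurons of all regions was highest in GSC1-3 and GSC1-4, at a mean log2 CPM of 8.57 in GSC1-3 and 8.39 in GSC1-4, against 6.40, 7.83 and 7.20 in GSC2 tumours 1 to 3 and 7.01 and 5.82 in GSC1-1 and GSC1-2. Snap25, a gene of synaptic vesicle fusion, was at 213, 598 and 411 CPM in GSC2 tumours and at 220, 53.3, 1579 and 1385 CPM in GSC1 tumours. Set against this panel, the mean log2 level of the 8 members differed by -1.17, -2.89 and -1.59 in GSC2 tumours and by -2.04, -2.15, -6.09 and -6.43 in GSC1 tumours 1 to 4. GSC1-1 and GSC1-2 lay within the range of the GSC2 tumours, and GSC1-3 and GSC1-4 lay below every other tumour.

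**Figure D3:**
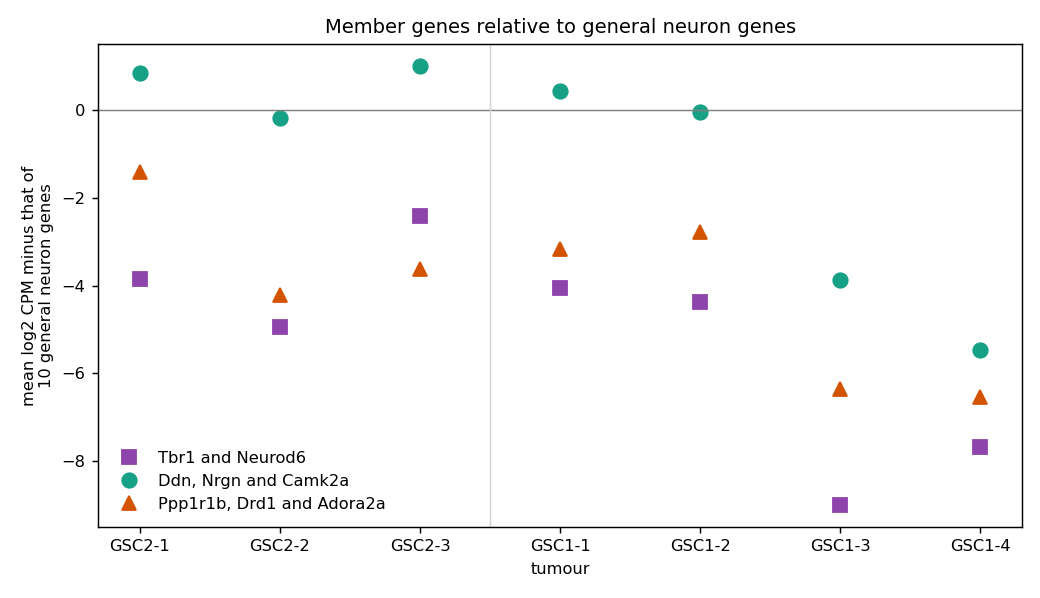
Mean log2 CPM of each member group minus that of 10 general neuron genes (y axis), by tumour (x axis, GSC2 left of the grey line, GSC1 right of it). Squares are Tbr1 and Neurod6, circles Ddn, Nrgn and Camk2a, triangles Ppp1r1b, Drd1 and Adora2a. All 3 groups were lowest in GSC1-3 and GSC1-4, with the circles at -3.88 and -5.47 there and between -0.19 and 1.01 in the other tumours.

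Ddn stood at 0.71, -0.82 and 0.05 log2 units from the panel in GSC2 tumours and at -0.16, -0.24, -7.11 and -8.64 in GSC1 tumours. Camk2a was above the panel in all GSC2 tumours (by 1.15 or more) and in GSC1-1 and GSC1-2 (by 1.18 and 0.96), and under it in GSC1-3 and GSC1-4 (-1.30 and -2.26). Ppp1r1b differed from these: it was at 0.29, -2.60 and -1.23 in GSC2 tumours and at -1.87, -2.46, -4.74 and -1.15 in GSC1 tumours, so that GSC1-4 lay above all but GSC2-1. Neurod6 was at -3.49, -5.20 and -1.73 in GSC2 tumours and at -5.28, -5.03, -7.11 and -6.54 in GSC1 tumours. Tbr1 was at -4.21, -4.71 and -3.12 in GSC2 tumours and at -2.83, -3.70, -10.90 and -8.81 in GSC1 tumours.

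Genes of other brain regions were high in GSC1-3 and GSC1-4. Hindbrain and spinal cord genes summed to 7.43, 4.91 and 1.55 CPM over 6 genes in GSC2 tumours, against 2.87, 3.20, 561 and 202 CPM in GSC1 tumours. The 6 cerebellar genes summed to 4.94, 18.6 and 8.27 CPM in GSC2 tumours and to 19.1, 22.6, 61.0 and 882 CPM in GSC1 tumours. Hoxb5, a patterning gene of the caudal nervous system, was listed at 0 in GSC2-1, GSC2-2, GSC1-1 and GSC1-2 and was at 208.6 CPM in GSC1-3. Astrocyte genes also had their highest mean log2 CPM there, at 10.20 in GSC1-3 and 10.11 in GSC1-4 and at most 9.44 elsewhere, and 8 mitosis genes their lowest, at 4.33 and 4.93 and at least 5.82 elsewhere. The part of these lists in the members' levels was not tested.

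Other cortical projection neuron genes did not share one pattern with Tbr1. Of 10 such genes all passed the filter on low counts, and their log2 fold changes, GSC2 minus GSC1, were positive for 5 and negative for 5, with a median of -0.02, beside a median of -0.03 over all 16068 genes tested. Lamp5, a lysosome-associated membrane protein gene of some cortical neurons, was at 6.41, 5.61 and 8.07 CPM in GSC2 tumours and at 7.04, 3.31, 97.8 and 73.8 CPM in GSC1 tumours, with GSC1-3 and GSC1-4 far above the rest. Bhlhe22, a helix-loop-helix factor gene, was at 8.04, 19.2 and 28.1 CPM in GSC2 tumours and at 4.46, 3.09, 6.76 and 35.6 CPM in GSC1 tumours. Fezf2, a factor of deep-layer neurons chosen after its values were seen, was at 0.865, 1.05 and 4.16 CPM in GSC2 tumours, and at 2.09 and 0.625 CPM in GSC1-1 and GSC1-2, 0.190 CPM in GSC1-4 and listed at 0 in GSC1-3. Among these names Fezf2 alone was low in both GSC1-3 and GSC1-4, as Tbr1 was.

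Hippocampal neuron genes were higher in GSC2 tumours for 6 of 7 genes, with a median log2 fold change of 2.04. This list and the others were chosen with earlier results of these data known, so nothing is read from their counts. Of the 7, 0 passed edgeR's quasi-likelihood test after adjustment over all genes, of which 0% passed, and 3 had an unadjusted p under 0.05, beside 4.21% of all genes. Prox1, a homeobox gene of dentate granule cells that other brain cells also use, was at 31.4, 60.4 and 26.2 CPM in GSC2 tumours and at 7.50, 5.11, 15.3 and 10.5 CPM in GSC1 tumours, with no overlap (log2 fold change 2.04, SE 0.46, adjusted p = 0.549 in edgeR). The adjusted p of Prox1 was 0.00903 in DESeq2 and 0.0272 in edgeR with a brain score, the mean of the general neuron and oligodendrocyte lists, as a covariate. These fits called 1.2% and 0.573% of all genes, and no other setting called Prox1. C1ql2, a synaptic organiser gene of dentate granule cells, was at 4.53, 24.3 and 13.2 CPM in GSC2 tumours, against 4.23, 2.02, 2.94 and 6.48 CPM in GSC1 tumours. Spink8, a gene of CA1 pyramidal cells chosen after its values were seen, was at 5.76 CPM in GSC2-3, the tumour with the most Neurod6, and at most 0.458 CPM in the other 6. Fibcd1, the 1 gene of the list lower in GSC2 tumours (log2 fold change -0.56), was instead highest in GSC1-3. It was at 20.95 CPM there and at 5.11 CPM in GSC2-3.

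The other striatal genes split between tumours as well. Of 16 genes 7 were highest in GSC2-1, where Drd1 and Adora2a were highest, and 7 in GSC1-3, beside 12.6% and 23.4% of all genes tested. Pde10a, the gene of a phosphodiesterase of striatal neurons, and Gpr6, an orphan receptor gene, were among those highest in GSC2-1. Pde10a was at 74.9, 39.4 and 17.1 CPM in GSC2 tumours and at 24.5, 21.4, 14.4 and 17.6 CPM in GSC1 tumours. Penk, the enkephalin precursor gene, which neurons of many regions use, was instead at 100.9, 29.4 and 12.3 CPM in GSC2 tumours and at 83.1, 64.0, 258.5 and 143.5 CPM in GSC1 tumours. The median log2 fold change of the 16 genes was 0.25, positive for 11 and negative for 5, with 0 called (0% of all genes) and 1 at an unadjusted p under 0.05 (4.21% of all genes). Pde10a, Gpr6 and Hpca below were chosen after their values were seen.

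Of 17 genes of calcium and calmodulin signalling and of the postsynaptic density 14 had a positive log2 fold change, with a median of 0.54. In edgeR 0 passed after adjustment, beside 0% of all genes, and 5 had an unadjusted p under 0.05, beside 4.21% of all genes. The values of 6 did not overlap between the lines, all with GSC2 above GSC1, beside 5.58% of all genes tested. Nothing is read from these counts either, since earlier results of these data were known when the list was chosen. Ppp3ca, the gene of the calcineurin catalytic subunit, was at 332, 380.1 and 444.5 CPM in GSC2 tumours and at 274, 223, 270.2 and 204 CPM in GSC1 tumours, with no overlap. Camk2b, the beta subunit partner of Camk2a, was at 143.5, 241 and 322 CPM in GSC2 tumours and at 118, 44.0, 264.5 and 277 CPM in GSC1 tumours. Its highest GSC1 values were in GSC1-4 and GSC1-3, while Camk2a was highest among GSC1 tumours in GSC1-1. Hpca, the gene of hippocalcin, a calcium sensor of hippocampal neurons, was at 153.8, 90.8 and 497 CPM in GSC2 tumours and at 55.5, 27.2, 99.0 and 55.8 CPM in GSC1 tumours, highest in the tumour with the most Neurod6.

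Of 13 other genes of dopamine, adenosine and cAMP signalling 12 were tested, 6 positive and 6 negative, with a median log2 fold change of 0.01, 0 called (0% of all genes) and 0 at an unadjusted p under 0.05 (4.21% of all genes). Prkar1b, a regulatory subunit gene of protein kinase A, was at 71.4, 186 and 189.8 CPM in GSC2 tumours and at 153, 52.6, 496 and 382 CPM in GSC1 tumours. Ppp1ca, a catalytic subunit gene of the phosphatase that DARPP-32 inhibits, was at 367, 279.8 and 491 CPM in GSC2 tumours and at 364.5, 372, 384 and 349 CPM in GSC1 tumours, with overlapping groups.

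**Figure D4:**
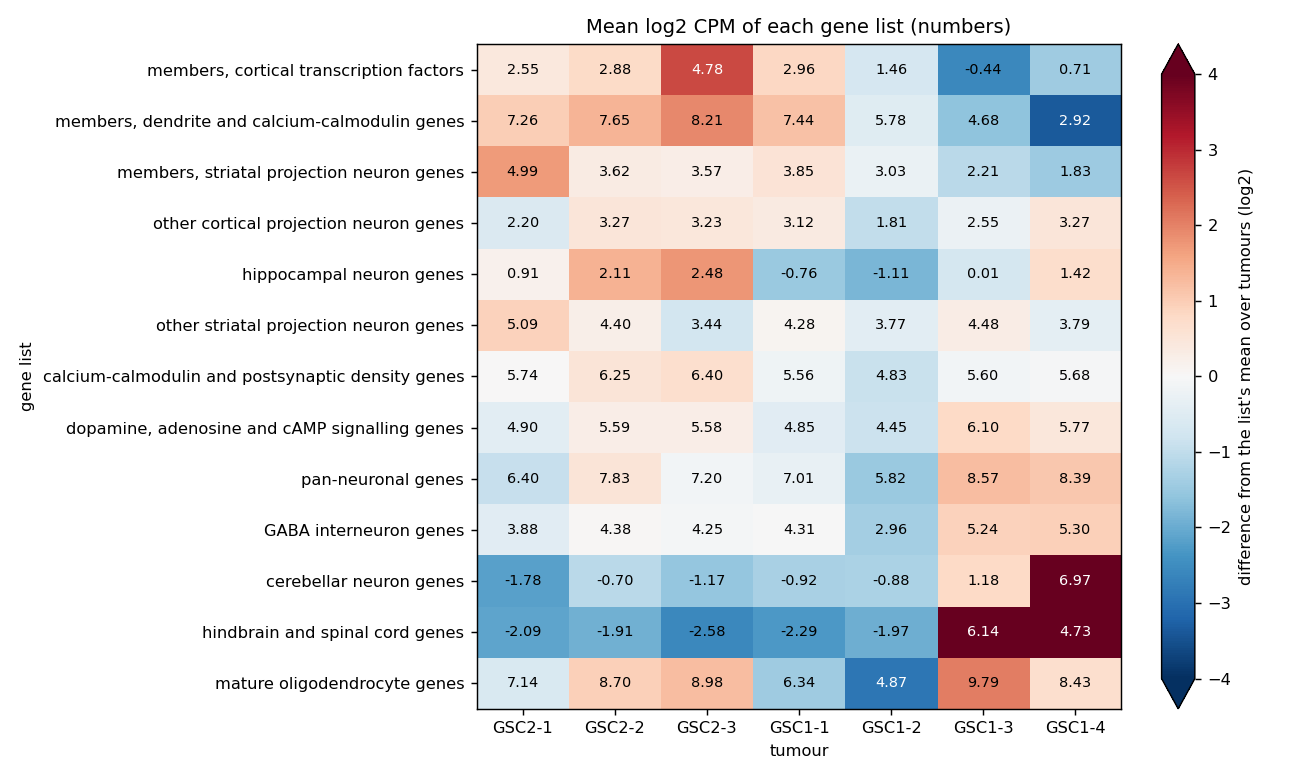
Mean log2 CPM (numbers) of the 3 member groups and of 10 other gene lists (rows) in each tumour (columns, GSC2 then GSC1), coloured by the difference from the row's mean over the tumours. The member rows are low in GSC1-3 and GSC1-4, where the pan-neuronal and hindbrain rows are high.

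The GSC2 against GSC1 comparison gave all 8 members a positive log2 fold change with a median of 1.29, which the choice of members may have shaped. The values were 0.79 (SE 1.32) for Tbr1, 2.80 (SE 0.74) for Neurod6, 1.75 (SE 1.34) for Ddn, 1.30 (SE 0.87) for Nrgn and 1.76 (SE 0.57) for Camk2a. They were 0.37 (SE 0.92) for Ppp1r1b, 0.72 (SE 1.11) for Drd1 and 1.28 (SE 0.72) for Adora2a. edgeR's quasi-likelihood test called 0 of the 8 after adjustment over 16068 genes, of which it called 0%. limma-voom also called 0 of the 8, with 0.00622% of all genes called. DESeq2 called 0 members and 1.2% of the 16007 genes to which it gave an adjusted p. Neurod6 (log2 fold change 2.77, SE 0.74 in DESeq2) got no adjusted p there, so DESeq2 made no call on it. At equal brain score edgeR called 0 members and 0.573% of all genes. At an unadjusted p under 0.05 stood 2 members, Neurod6 and Camk2a, beside 4.21% of all genes. The lines did not overlap for 2 members, Neurod6 and Ddn, beside 5.58% of all genes tested. Nothing is read from these counts, since the levels they rest on were known when the genes were chosen.

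Single tumours moved these differences. Without GSC2-3 the log2 fold change was 1.29 for Neurod6 and 0.18 for Tbr1. Without GSC1-1 it was 2.56 for Tbr1, 3.03 for Ddn, 2.45 for Nrgn and 1.34 for Drd1. Without GSC2-1 it was 0.39 for Adora2a, 0.18 for Drd1 and -0.063 for Ppp1r1b, and without GSC1-4 it was 1.74 for Ppp1r1b. The other values with 1 tumour left out are the grey ticks in the plot of line differences. The model mattered as well: the log2 fold change of Tbr1 was 2.20 in limma-voom and 2.34 at equal brain score, and that of Ddn 3.52 and 3.46. Without GSC1-3 and GSC1-4 together the log2 fold changes were 2.93 for Neurod6, 1.38 for Camk2a, 1.54 for Ppp1r1b, 0.75 for Ddn, 0.60 for Nrgn and Adora2a, -0.095 for Drd1 and -0.19 for Tbr1, with 0 members and 0.272% of all genes called. Without these and GSC2-3, the 3 libraries low in long transcripts, 0 members and 0.348% of all genes were called. Without GSC1-3 and GSC1-4 the sign thus turned for Drd1 (SE 0.54) and Tbr1 (SE 0.72), at values smaller than their SEs. Ppp1r1b, high in GSC1-4, gained. Without GSC2-3 as well, Drd1 was positive (0.22, SE 0.47) and Tbr1 negative (-0.78, SE 0.75).

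**Figure D5:**
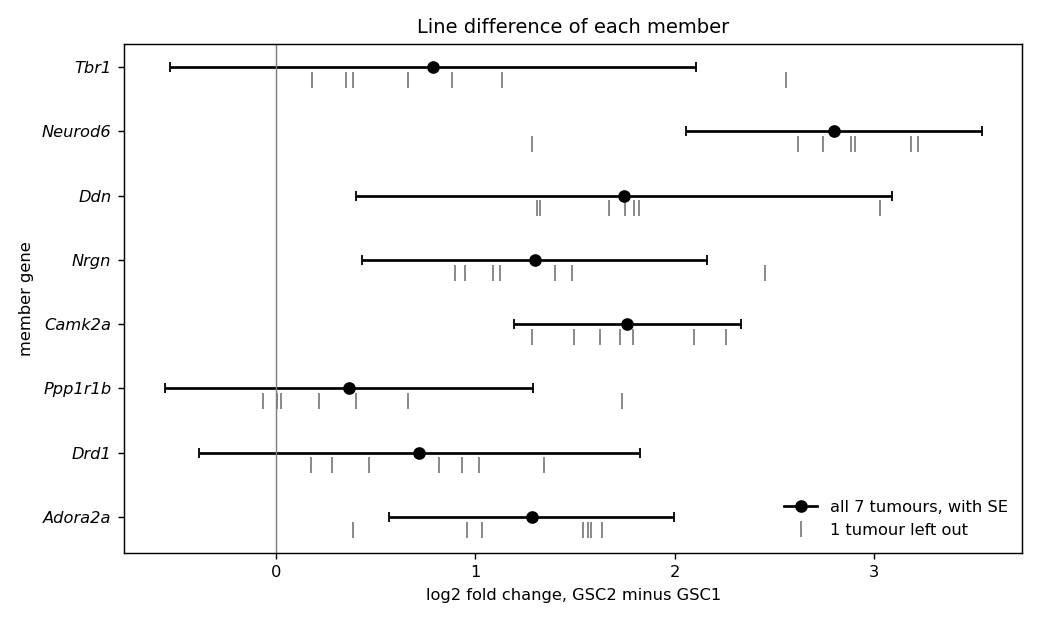
Log2 fold change of each member, GSC2 minus GSC1, from edgeR (x axis) with its SE over all 7 tumours (black), and with 1 tumour left out (grey ticks). All 8 black points lie above 0, between 0.37 and 2.80, and the ticks of Ppp1r1b reach -0.063.

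Among 11901 genes with a mean of at least 5 CPM, those whose log2 CPM over the 7 tumours was most like the mean of the 8 members were Chrm1 (Pearson's r 0.990), Atg14 (0.989), Fam124a (0.980), Shisa7 (0.971), Samsn1 (0.971) and Ifi44l (0.967). Chrm1, the gene of the muscarinic M1 receptor of forebrain neurons, was at 18.6, 18.4 and 34.5 CPM in GSC2 tumours, against 20.8, 8.16, 1.79 and 1.43 CPM in GSC1 tumours. Atg14 hardly varied, from 15.7 CPM in GSC1-3 to 20.55 CPM in GSC2-3. Most like the cortical factors were Lgals9, Bambi, Cd300a, Ptk2b, Unc93b1 and Gldn, with r from 0.945 to 0.960. Lgals9, the first of these, was at 114.4, 86.55 and 146.3 CPM in GSC2 tumours and at 98.12, 76.02, 44.95 and 61.42 CPM in GSC1 tumours. Ptk2b, a calcium-activated tyrosine kinase gene, was at 96.3, 132.9 and 199 CPM in GSC2 tumours and at 117.9, 52.9, 9.46 and 13.4 CPM in GSC1 tumours. Among the genes most like the striatal members were Akap5, Arhgap4, Fscn1, Il10ra and Tnfrsf1b, with r from 0.954 to 0.994, and Akap5 encodes an anchor of protein kinase A in dendrites. The range of Akap5 was narrow, at 11.5, 7.93 and 7.52 CPM in GSC2 tumours and 8.20, 6.14, 4.57 and 3.76 CPM in GSC1 tumours. These values of r are a description over 7 tumours and do not show that a gene is one of neurons. Chrm1, Ptk2b and Akap5 were picked for a word on what they encode. The other names were not sorted by cell type.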

How the data were processed

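The deposited tables give raw read counts for each Ensembl gene, with 1 table for every tumour. The submitters' processing notes name TopHat2 2.0.11 and HTSeq, and the builds mm9 and dm3 with no role. How HTSeq handled strand is not stated there, so reads of Ddn or Ppp1r1b and of their antisense partners cannot be told apart. Library sizes leave out the 5 summary lines: 6.19 to 14.2% of reads listed fell on no gene, 12.8 to 21.0% had no unique position and 0.357 to 0.460% were ambiguous. GENCODE M21 (GRCm38) gave symbols for 32897 identifiers and the longest transcript lengths. The promoter coordinates are RefSeq's on GRCm38.p6, not on the authors' build.

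The deposited counts entered edgeR 4.0.16 in R 4.3.3: filterByExpr (16068 genes), TMM factors, a robust quasi-likelihood fit of GSC2 against GSC1 over all 7 tumours, and Benjamini-Hochberg adjustment at 0.05. SEs are the log2 fold change over the root of the F statistic. Log2 CPM used a prior count of 2. DESeq2 1.42.0 and voom in limma 3.58.1 were alternatives, and levels were handled in Python 3.11.15 with scipy 1.17.1. The fit was also run on simulated data, and what it recovered at the spread of these tumours is not given here. The members and the 122 genes of the other lists were chosen with earlier results of these data known. The text names the members, up to 4 genes per list by mean CPM, any list gene called in edgeR, and the 6 genes most like the members, the cortical factors and the striatal genes, and says where a gene lies outside this rule. A gene that the rule names is not reported here.

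The series describes the tumours as independent. Any pair of libraries of a line differed beyond counting noise (chi-square per degree of freedom 66.5 or more).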

Additional observations from a re-analysis of the deposited data

Results flagged for a closer look

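Among 26 sets of values in the 4 GSC1 tumours 1 stood out by Dixon's criterion, where chance gives about 1 in 20. The list of calcium, calmodulin and postsynaptic density genes had a mean log2 CPM of 4.83 in GSC1-2, far from the other GSC1 tumours at 5.56, 5.60 and 5.68. GSC1-2 was also the lowest GSC1 tumour for the pan-neuronal list, at 5.82. The groups of 3 GSC2 tumours were not tested.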

How the results depend on the processing

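The count of members called stayed at 0 under every alternative run. The count over all genes, 0 in edgeR, was 1 without the filter, 192 in DESeq2, 1 in limma-voom, 92 with the brain score as a covariate, 44 without GSC1 tumours 3 and 4 and 55 without the 3 libraries low in long transcripts. Of the other list genes DESeq2 called 3 (Prox1 higher in GSC2, Cbln1 and Gja1 lower; Gja1 is named after its values were seen) and the fit with the brain score 1 (Prox1). Leaving out each tumour in turn gave 0 to 0 for all 3 counts. The sign of the log2 fold change turned for Tbr1 without GSC1 tumours 3 and 4 (-0.19, SE 0.72). It also turned for Tbr1 without the 3 libraries low in long transcripts (-0.78, SE 0.75). For Drd1 it turned without GSC1 tumours 3 and 4 (-0.095, SE 0.54), and for Ppp1r1b without GSC2 replicate 1 (-0.063, SE 1.09). The cause was not tested. Leaving out each tumour in turn gave Ppp1r1b -0.063 to 1.74. Drd1 has no value under the filter of a mean of 5 CPM. Neurod6 has no adjusted p in DESeq2, so the count of 0 members there covers the others only. The replicate block left all 3 counts at 0. Deviations from the line's mean in same-numbered tumours correlated at 0.583, -0.306 and 0.409, and those of GSC2-1 and GSC1-2 at 0.699. These values span all genes and cannot tell whether same-numbered tumours share a batch, which was not tested. The members' level against the pan-neuronal panel moved by less than 1 SD of its line under a prior count of 0.5, RLE factors and the panel's median. That SD is a loose bar in GSC1, whose values ran from -2.04 to -6.43. In GSC1-4 the level was -6.43 in the main run. It was -6.58 at a prior count of 0.5, -6.43 with RLE factors and -6.27 with the panel's median. Low counts limit Tbr1 in GSC1-3 and Drd1 in GSC1-4, at 3 reads and 1 read.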
